A study of Mus musculus with 12 samples.

Results

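A set of 6 marker genes of the pyramidal cells of the hippocampal CA fields was followed in bulk RNA of mouse cortex, namely Fibcd1, Spink8 and Wfs1 for CA1, Amigo2 for CA2, and Bok and Iyd for CA3. They were taken by symbol from a deposited table of 33024 genes, and all 6 were present and passed the expression filter that left 16059 genes for testing. The libraries came from wildtype C57BL/6 mice of the abstinence arm, 7 control mice given water in both bottles and 5 ethanol-administered (EtOH) mice offered 20% (v/v) ethanol beside a bottle of water. Drinking started at 30 days of age and ran for 35 sessions of 12 h in the dark, followed by 14 days without ethanol and by behavioural tests in both groups. Every mouse was perfused with saline before the cortex was taken, and each library stood for 1 mouse.

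The hippocampus passes activity along a chain of cell fields. Granule cells of the dentate gyrus contact CA3 pyramidal cells, which project to CA1, while the small CA2 field lies between them and is known for its part in social memory. Each field is marked by its own set of genes, although several of these genes are also transcribed elsewhere in the forebrain. Wfs1, for example, is known from CA1 but also from the striatum, the amygdala and superficial cortex.

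Total counts ranged from 31768076 to 42183029 over the 12 mice, where 3 counts, taken as the floor for detection, amounted to between 0.0695 and 0.0962 CPM (counts scaled to library size with TMM factors). Control mouse 5 and EtOH mouse 1 had the deepest library of their group. All 31 pairs of libraries within a group differed by more than sampling noise, with a chi-square of at least 7.77 per degree of freedom. Floors of this kind cover counting error only.

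Among the CA field genes, Fibcd1 and Spink8 were called higher in the EtOH mice and Bok was called lower, while Wfs1 and Amigo2 did not pass the test. Calls required a log2 fold change beyond 0.5 in either direction together with an adjusted p below 0.05 (edgeR quasi-likelihood test, 5 against 7 mice). By this rule 4.20% of all genes tested were higher and 4.09% lower, 8.29% together. Iyd also met the rule, but it passed the expression filter (at least 0.310 CPM in 5 mice) through the EtOH mice alone, with 0 of 7 control mice at that level, so it had to differ and is left out of these counts and described by its values. The median log2 fold change was 0.21 over the other 5 genes and 0.00 over all genes tested. The values of the groups did not overlap for Fibcd1 and Spink8, where every EtOH mouse lay above every control mouse (4.84% of all genes tested), nor for Bok, where every EtOH mouse lay below (4.96% of all genes tested). In bulk tissue, fewer cells of a type and less RNA per cell cannot be told apart, and the same holds for more.

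**Figure D1:**
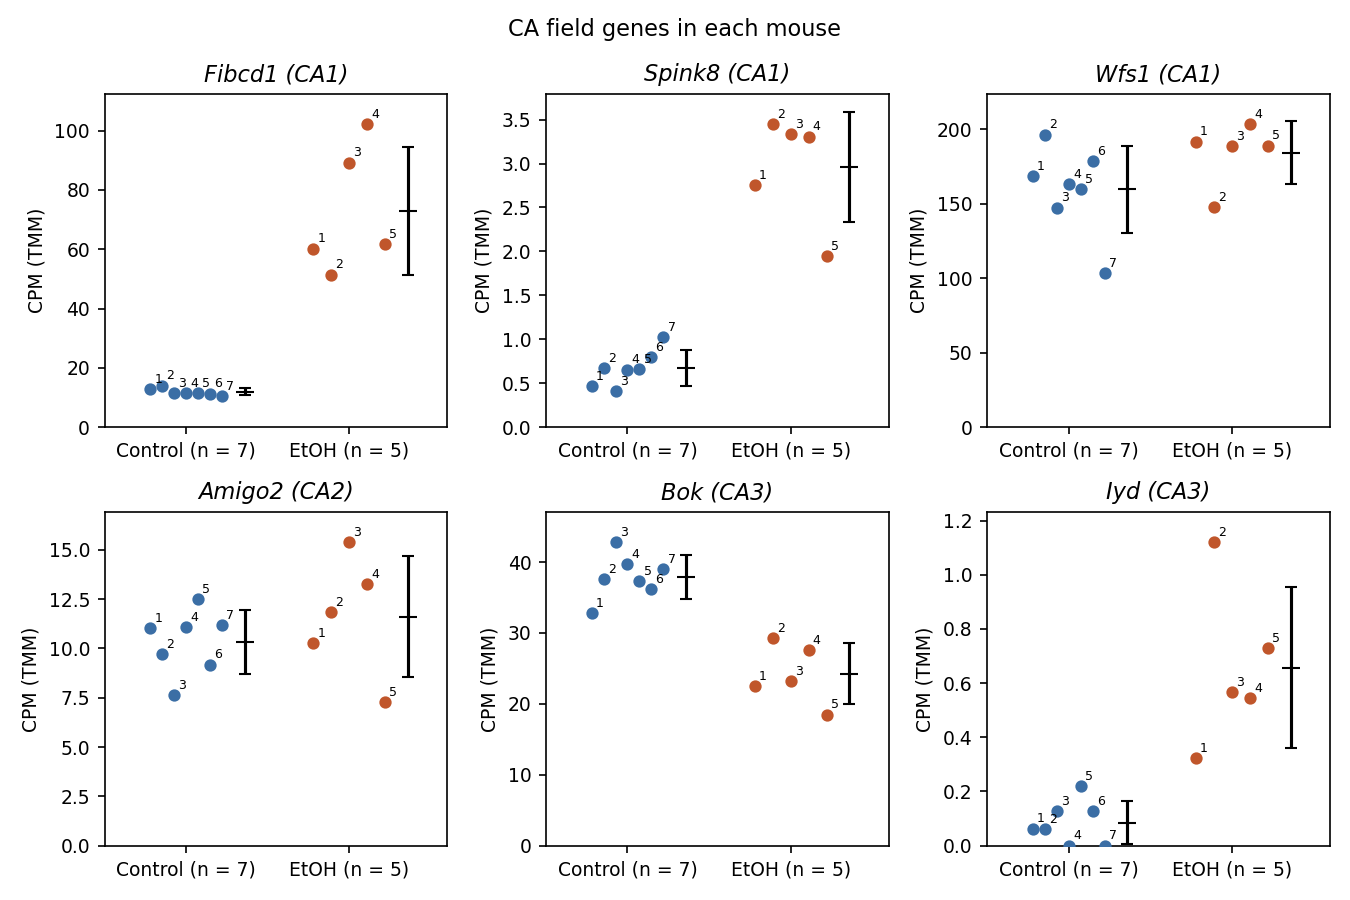
CPM (vertical axes, linear, starting at 0) of the 6 CA field genes in each of 7 control and 5 EtOH mice; each point is 1 mouse with its number, and the bar beside the points is the mean ± SD. Fibcd1, Spink8 and Iyd lie higher and Bok lies lower in every EtOH mouse than in any control mouse, while the groups overlap for Wfs1 and Amigo2.

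Fibcd1, on chromosome 2 of GRCm39 from 31702948 to 31736233 on the minus strand, encodes a membrane receptor with a fibrinogen-like domain that binds acetylated sugars. In the control mice it had between 10.5 and 14 CPM (median 11.5). In the EtOH mice it had 60.2, 51.4, 89.2, 102 and 61.7 CPM in mice 1 to 5. The 2 mice with the highest level, EtOH 3 and EtOH 4, stood apart from the other 3, yet the lowest EtOH mouse still had several times the level of the highest control. Group means were 73.0 ± 21.7 (SD, n = 5) and 11.9 ± 1.14 CPM (SD, n = 7), so Fibcd1 was 6.13-fold higher, 2.62 ± 0.14 (SE) as log2 fold change, with an adjusted p of 1.46e-09 in edgeR. It ranked in place 8 of 16059 genes by p-value.

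Spink8, on chromosome 9 from 109641348 to 109655706 on the plus strand, encodes a secreted protein of the Kazal family of serine peptidase inhibitors. It was a weak transcript in these libraries, with 13 to 32 counts per control mouse and 64 to 119 per EtOH mouse. Control mice had between 0.410 and 1.03 CPM (median 0.659). The EtOH mice had 2.76, 3.45, 3.34, 3.31 and 1.94 CPM in mice 1 to 5, so that EtOH 5 was the lowest of its group and still above all controls. Spink8 was 4.40-fold higher, 2.14 ± 0.22 (SE) as log2 fold change, with an adjusted p of 1.63e-06 in edgeR.

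Wfs1 encodes wolframin, a glycoprotein of the endoplasmic reticulum membrane whose loss causes Wolfram syndrome, and lies on chromosome 5 from 37106176 to 37153872 on the minus strand. Its CPM was the highest of the 3 CA1 genes, between 104 and 196 CPM in the control mice (median 163). In the EtOH mice it had 192, 148, 189, 203 and 189 CPM in mice 1 to 5. The ranges overlapped widely, with control mouse 7 the lowest of all 12 and EtOH 2 the lowest of the EtOH mice. Means of 184 ± 21.2 (SD, n = 5) and 160 ± 29.1 CPM (SD, n = 7) corresponded to 0.21 as log2 fold change, with a 95% interval from -0.04 to 0.45 and an adjusted p of 0.208 in edgeR. Of its 10545 bases of annotated exon, 2660 also belong to exons of Ppp2r2c on the opposite strand, and whether reads there were assigned by strand is not given in the sources used here.

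The 3 CA1 genes were also compared with each other, on the difference of their log2 CPM within each mouse (prior count 2). Fibcd1 minus Wfs1 was -3.72 ± 0.21 (SD, n = 7) in control and -1.37 ± 0.32 (SD, n = 5) in EtOH mice, a shift of 2.35 (p = 0.00126 in a two-sided exact permutation test, the smallest that these groups allow, and 0.00253 after adjustment over the 2 CA1 pairs). Wfs1 varied less over all 12 mice than the gap between the groups in Fibcd1, so this p follows from the separation of Fibcd1 already given. Fibcd1 minus Spink8 shifted by 0.50 and did not pass (exact permutation p = 0.101, adjusted 0.101). That last pair passed without EtOH 2, with a shift of 0.67 (adjusted p = 0.0273, exact permutation test).

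Amigo2, a leucine-rich-repeat adhesion protein whose gene marks CA2, lies on chromosome 15 from 97142006 to 97145196 on the minus strand. The control mice had between 7.64 and 12.5 CPM (median 11.0). The EtOH mice had 10.3, 11.8, 15.4, 13.3 and 7.26 CPM in mice 1 to 5. EtOH 3 was thus the highest and EtOH 5 the lowest of all 12 mice. As log2 fold change the difference was 0.16, with a 95% interval from -0.15 to 0.48 and an adjusted p of 0.457 in edgeR. An exon of Pced1b on the opposite strand covers 197 of its 3191 exonic bases.

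The CA3 genes had log2 fold changes of opposite sign. Iyd encodes iodotyrosine deiodinase, an enzyme known from the thyroid, where it recovers iodide, and lies on chromosome 10 from 3490233 to 3505854 on the plus strand. Control mice had between 0 and 9 counts, of which 4 of 7 mice were at or under the floor of 3 counts and 2 had none. The EtOH mice had 14, 36, 19, 18 and 24 counts in mice 1 to 5, which is 0.324, 1.12, 0.566, 0.546 and 0.729 CPM. All 5 lay above the highest control mouse (0.220 CPM), and EtOH 2 was the highest. The fitted log2 fold change of 2.81 had the widest error of the 6 genes (SE 0.51). Since the filter admitted Iyd on the side where it is high, neither an interval nor a p-value is given.

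Bok, on chromosome 1 from 93613193 to 93623498 on the plus strand, encodes a member of the BCL2 family that can drive cell death and binds inositol trisphosphate receptors. The control mice had between 32.8 and 42.8 CPM (median 37.6). The EtOH mice had 22.5, 29.3, 23.2, 27.6 and 18.5 CPM in mice 1 to 5, with EtOH 5 the lowest and none reaching a control value. The means of 24.2 ± 4.30 (SD, n = 5) and 37.9 ± 3.11 CPM (SD, n = 7) corresponded to -0.65 ± 0.10 (SE) as log2 fold change, with an adjusted p of 0.000114 in edgeR. Iyd minus Bok was -8.24 ± 0.87 (SD, n = 7) in control and -5.16 ± 0.57 (SD, n = 5) in EtOH mice on the log2 CPM scale, a shift of 3.08 that depends on the prior count (3.88 with 0.5 and 2.44 with 5). Its test is not used, because both genes already separated the groups, in opposite directions.

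The upstream sequences of these 2 CA3 genes are shown because the values of the genes lay on opposite sides of the controls. They come from the 250 bases before the transcription start that RefSeq gives (table of GRCm38.p6), matched exactly and at a single place to the chromosome in GRCm39. The GENCODE start lies 41 bases upstream of the RefSeq start for Iyd and 104 bases upstream for Bok, and the sequences are printed up to the GENCODE start. Capitals mark a match to any of the motifs searched on both strands.
Iyd, chr10:3490024-3490232, plus strand: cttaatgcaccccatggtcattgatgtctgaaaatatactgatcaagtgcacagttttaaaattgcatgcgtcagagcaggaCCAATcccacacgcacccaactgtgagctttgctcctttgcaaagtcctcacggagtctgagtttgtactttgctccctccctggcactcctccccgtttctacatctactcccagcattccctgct
Bok, chr1:93613047-93613192, plus strand: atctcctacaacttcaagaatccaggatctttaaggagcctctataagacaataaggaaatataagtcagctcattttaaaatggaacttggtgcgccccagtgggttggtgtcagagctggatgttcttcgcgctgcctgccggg

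The printed stretch of Iyd held CCAAT, the CCAAT box, 168 bases before the RefSeq start, and that of Bok held no match. Between the GENCODE and the RefSeq start, Iyd held TATAAA and Bok the GC box GGGCGG on the reverse strand, 29 and 8 bases before the RefSeq start. The E-box CAGATG was matched in Iyd as its reverse complement, 39 bases before the RefSeq start. Over 27025 RefSeq windows of 250 bases, 13.0% held TATAAA, 14.5% held CAGATG, 34.5% held CCAAT and 32.9% held GGGCGG on either strand. The E-box CAGCTG (12.8% of windows) and the cAMP response element TGACGTCA (1.62% of windows) were in none of the 5 windows matched to the CA field genes. GC content was 48.4% for Iyd and 55.2% for Bok, against a median of 52.0% over all windows, and 71.6% for Fibcd1, 69.6% for Wfs1 and 84.0% for Amigo2. Spink8 had no entry. These matches describe letters, not sites of binding.

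Levels were compared between genes after division by the length of annotated exon in kilobases (RPKM). In the control mice Bok (15.5 ± 1.27, SD, n = 7) and Wfs1 (15.1 ± 2.76) stood first, with ranges that overlapped, followed by Amigo2 (3.24 ± 0.50), Fibcd1 (2.24 ± 0.21), Spink8 (0.555 ± 0.169) and Iyd (0.0327 ± 0.0302). The ranges of Amigo2 (2.39 to 3.92 RPKM) and Fibcd1 (1.98 to 2.64 RPKM) overlapped as well. In the EtOH mice the order was Wfs1 (17.5 ± 2.01 RPKM, SD, n = 5), Fibcd1 (13.7 ± 4.07 RPKM), Bok (9.89 ± 1.76 RPKM), Amigo2 (3.64 ± 0.96 RPKM), Spink8 (2.45 ± 0.52 RPKM) and Iyd (0.252 ± 0.114 RPKM). Fibcd1 thus moved from the fourth to the second place on this scale, with ranges that overlapped those of Wfs1 and Bok on either side.

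Lists of other marker genes of the 3 fields were examined without the 6 genes above. Of 6 other CA1 genes, 2 were called higher and none lower (edgeR, as above, against 4.20% and 4.09% of all genes tested), with a median log2 fold change of 0.22. The receptor gene Gpr161 had 7.86 ± 1.38 CPM (SD, n = 7) in control and 43.3 ± 2.85 CPM (SD, n = 5) in EtOH mice, and its log2 fold change of 2.46 was close in size to that of Fibcd1. The matricellular protein gene Ccn3 was higher by 0.92 on the log2 scale with overlapping groups (adjusted p of 3.59e-05 in edgeR). The remaining 4 CA1 genes, among them the transcription factor gene Pou3f1, which cortical neurons also transcribe, lay between -0.42 and 0.23. Of these, Mpped1 (0.23) and Man1a (0.22) had adjusted p of 0.00613 and 0.0453 in edgeR but missed the minimum fold change. For Mpped1 every EtOH mouse lay above every control mouse.

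Of 9 other CA2 genes 8 were tested (all but Avpr1b), and of these 2 were called higher (4.20% of all genes) and 2 lower (4.09%), with a median of 0.20. Ntf3, the gene of neurotrophin-3, had 0.559 ± 0.315 CPM (SD, n = 7) in control and 2.39 ± 0.931 CPM (SD, n = 5) in EtOH mice, higher by 2.07 on the log2 scale (adjusted p of 0.000209 in edgeR). Sostdc1, a secreted antagonist of BMP and Wnt signals that the choroid plexus also transcribes, was higher by 2.53 on the log2 scale with overlapping groups (adjusted p of 0.00192 in edgeR). The calmodulin-binding protein gene Pcp4 had a log2 fold change of -1.26, with 12.9 ± 1.49 CPM (SD, n = 5) against 31.1 ± 4.87 CPM (SD, n = 7), and the AMPA receptor auxiliary subunit gene Cacng5 one of -0.60 with overlapping groups. The CA2 gene Rgs14, a regulator of G protein signalling, did not pass (log2 fold change 0.13, adjusted p of 0.240 in edgeR).

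Of 8 other CA3 genes, 3 were called higher (4.20% of all genes) and none lower (4.09%), with a median of 0.35. The ubiquitin ligase gene Rnf182 had 7.35 ± 0.845 CPM (SD, n = 7) in control and 15.4 ± 1.94 CPM (SD, n = 5) in EtOH mice, higher by 1.07 on the log2 scale (adjusted p of 5.14e-07 in edgeR). The synaptic scaffold gene Homer3 and the cytokine receptor gene Csf2rb2 had log2 fold changes of 1.20 and 0.91. The other 5 lay between -0.31 and 0.40, among them the kainate receptor gene Grik4 (0.19, adjusted p of 0.0754 in edgeR). Nectin3 (0.31), Socs2 (0.40) and Coch (-0.31) had adjusted p of 0.00254, 0.0160 and 0.0112 in edgeR but missed the minimum fold change. For Nectin3 every EtOH mouse lay above every control mouse. Bok was the only gene called lower of the 10 in the whole CA3 list.

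**Figure D2:**
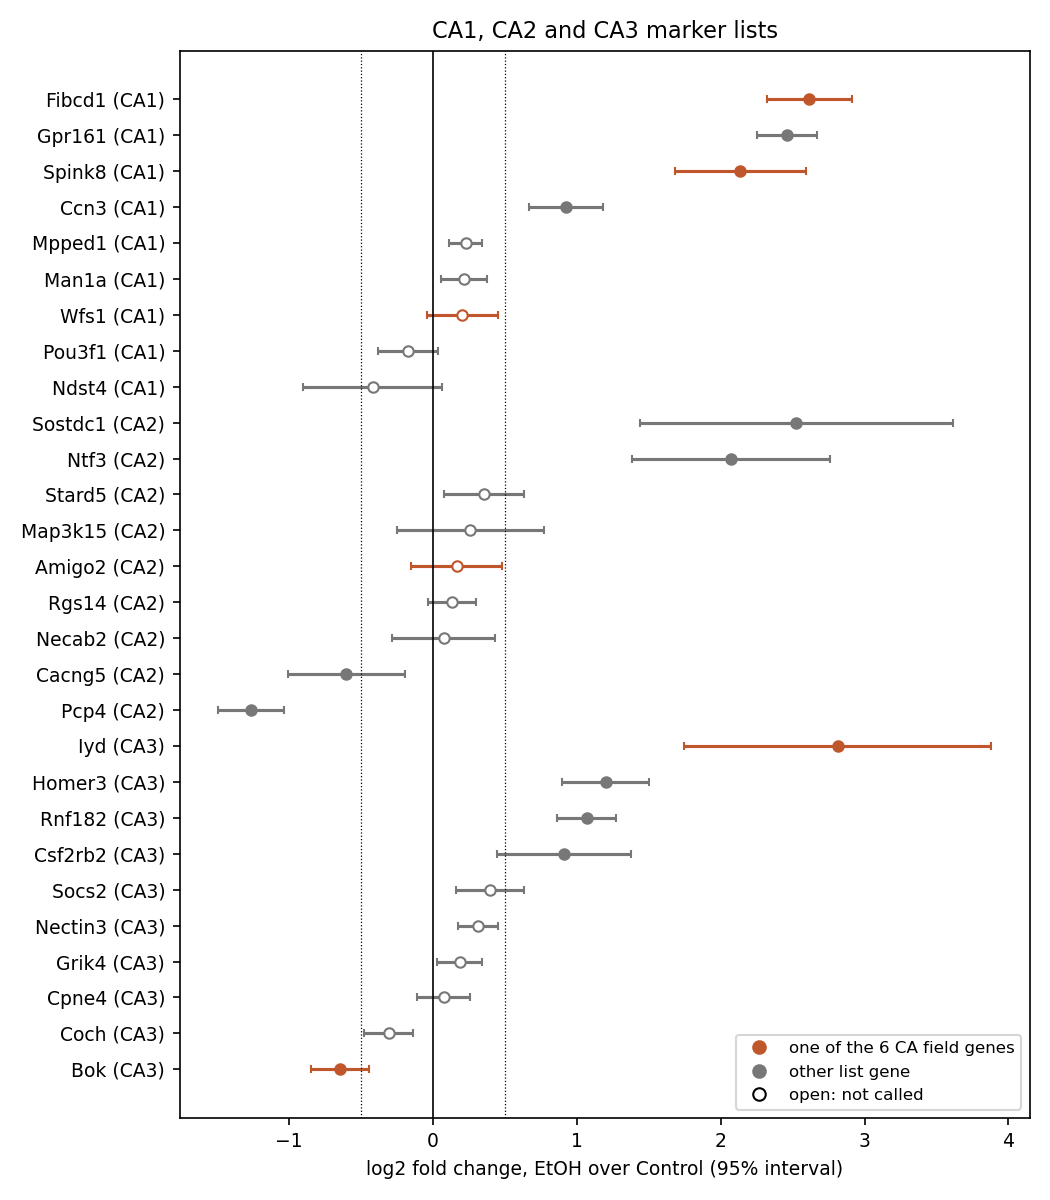
Log2 fold change of EtOH over control mice (horizontal axis, with 95% interval) for the tested genes of the CA1, CA2 and CA3 marker lists. Filled points met the rule for a call, open points did not, and dotted lines mark 0.5 in either direction. Iyd is drawn filled, but its call is not counted. Fibcd1, Gpr161 and Spink8 in CA1 and Sostdc1 and Ntf3 in CA2 lie above 2, Homer3 and Rnf182 lead the CA3 genes at 1.20 and 1.07 apart from Iyd, which passed the filter through the EtOH mice alone, most of the other genes lie near 0, and Pcp4, Cacng5 and Bok are called lower.

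Marker genes of other cells and regions also differed between the groups, and their part in the values of the CA field genes was not tested. Their counts stand beside the same 4.20% of all genes called higher and 4.09% called lower. The cortical projection neuron list, which checks the labelled tissue, was detected in every mouse, with a summed level, most of it Slc17a7, of 2712 to 3253 CPM in control and 2637 to 3185 CPM in EtOH mice, 2 of 10 genes called higher (Etv1 and Fezf2) and 2 lower (Foxp2 and Lamp5). Tbr1 (-0.40) and Sulf2 (-0.30, every EtOH mouse below every control mouse) had adjusted p of 0.00222 and 0.000633 in edgeR but did not reach the minimum fold change. In the other direction, Cux2 (0.31) and Rasgrf2 (0.26) had adjusted p of 0.0181 and 0.0225 in edgeR and did not reach it either. Of 10 dentate gyrus granule cell genes, Dsp, like Iyd, passed the filter through the EtOH mice alone, and 4 of the other 9 were called higher and none lower, led by C1ql2, Lct and Prox1 with log2 fold changes of 4.29, 2.97 and 1.28. All 14 striatal spiny neuron genes were called lower, and their summed level was 1304 to 2652 CPM in control and 346 to 383 CPM in EtOH mice. All 4 tested choroid plexus genes were called higher, and the summed level of that list was 5.58 to 16.5 CPM in control and 10.6 to 973 CPM in EtOH mice. Of 6 thalamic genes, Slc17a6 alone was called, higher by 1.08, and their summed level was 55.1 to 63.2 CPM in control and 67.2 to 93.6 CPM in EtOH mice. Slc17a6 made up most of that difference (14.6 CPM in control and 30.9 CPM in EtOH mice on average). Tcf7l2, Prkcd and Ramp3 had log2 fold changes of -0.14, -0.21 and -0.36, and Lef1 and Plekhg1 of 0.26 and 0.43. Ramp3 and Plekhg1 had adjusted p of 0.0460 and 0.00700 in edgeR but missed the minimum fold change. Of the glial lists, 2 of 8 oligodendrocyte genes (Mobp and Mbp) were called lower, 1 of 6 astrocyte genes (Gfap) higher, and none of 5 microglia genes. The summed oligodendrocyte level was 4427 to 5879 CPM in control mice, and 4 of 5 EtOH mice (2968 to 3695 CPM) lay below all of them, with EtOH 2 at 5306 CPM. The summed microglia level was 248 to 273 CPM in control mice, and all 5 EtOH mice (221 to 245 CPM) lay below, while the summed astrocyte level was 2750 to 3280 CPM in control and 3151 to 3657 CPM in EtOH mice. No gene of these lists was at 0 in all mice.

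Families around single CA field genes are set beside the 8.29% of all genes that were called in either direction. None of 10 genes of the unfolded protein response and its partners, which Wfs1 is known to regulate, was called, with log2 fold changes between -0.34 and 0.36. The genes at these 2 ends, Atf6 and Ern1, had adjusted p of 0.00161 and 0.0230 in edgeR but missed the minimum fold change. Of 12 BCL2 family and inositol trisphosphate receptor genes, 1 was called, Pmaip1 (Noxa), with a log2 fold change of -1.13 (adjusted p of 0.000178 in edgeR). Itpr1 (-0.42), Bcl2l1 (-0.22) and Itpr2 (0.24) had adjusted p of 0.00346, 0.0180 and 0.0232 in edgeR but missed the minimum fold change. The summed level of these genes, most of it Itpr1, was 839 to 1130 CPM in control and 705 to 821 CPM in EtOH mice. Of 12 leucine-rich-repeat adhesion genes other than Amigo2, 1 was called, the synaptic organiser gene Lrrtm1, higher by 0.67, while Amigo1 had a value of 0.03. Among the genes below the minimum fold change, edgeR gave adjusted p of 0.00817 for Amigo3 (0.498) and 0.0118 for Lrrtm4 (0.28). It gave 0.000134 for Lrrtm3 (-0.43, every EtOH mouse below every control mouse) and 0.00234 for Lrrc4 (0.23, every EtOH mouse above). Of 14 genes with a fibrinogen-like or Kazal domain or a deiodinase activity, 9 were tested and 2 called higher, Tnc (0.99) and the deiodinase gene Dio3 (1.77). Both had overlapping groups, and Dio3 had 0.319 to 1.76 CPM in control and 0.249 to 5.34 CPM in EtOH mice. Dio2 (-0.42) and Spock1 (-0.24) had adjusted p of 0.00564 and 0.0107 in edgeR but missed the minimum fold change. Spink1 and Dio1 had no counts in any mouse.

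The likeness of profiles was described by Pearson's r of log2 CPM over the 12 mice after the group means were removed, so that the difference between the groups does not enter. For Wfs1 the most similar of all genes of at least 1 CPM were Adcy5 (r = 0.98), Drd1 (r = 0.95) and Zfp503 (r = 0.95). Adcy5, the adenylyl cyclase of striatal neurons, and the dopamine receptor gene Drd1 were both lower in the EtOH mice, with log2 fold changes of -1.41 and -2.54 (adjusted p of 1.84e-07 and 4.37e-08 in edgeR), while Wfs1 was not called. Over the 14 striatal marker genes, r with Wfs1 was above 0 for each of the 14 and had a median of 0.80 (0.11 to 0.95). Without control mice 7 and 2, the farthest from their group mean, the median was 0.52 (-0.48 to 0.85), so part of the likeness rests on these mice. Within the 7 control mice alone the median was 0.90 for Wfs1 and 0.73 for Fibcd1.

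For the other CA field genes the 12-mouse median r with the striatal genes was 0.36 (Fibcd1), -0.28 (Spink8), -0.10 (Amigo2), -0.10 (Bok) and 0.02 (Iyd). Without the 2 mice farthest from their group mean for each gene, these medians were 0.44, 0.04, -0.26, -0.20 and 0.28. Their most similar genes were Prmt2, Hdc and Prelp for Fibcd1, Ikzf1, Sowahc and Plekha1 for Spink8, Gabra5, Ak7 and Rmc1 for Amigo2, Slc7a6os, Cd84 and Hpca for Bok, and Gm16835, Ppp1r3e and Creg1 for Iyd, with r from 0.84 to 0.92. These are the highest values among all genes of at least 1 CPM, all measured in the same libraries, and high values arise by that choice alone. Iyd had 0 to 9 counts in the control mice, so counting error and the prior count enter all of its r values. Among the 15 pairs of CA field genes r lay between -0.37 (Spink8 and Wfs1) and 0.63 (Spink8 and Amigo2), and it was 0.04 for Fibcd1 and Spink8, the 2 CA1 genes that were called.

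**Figure D3:**
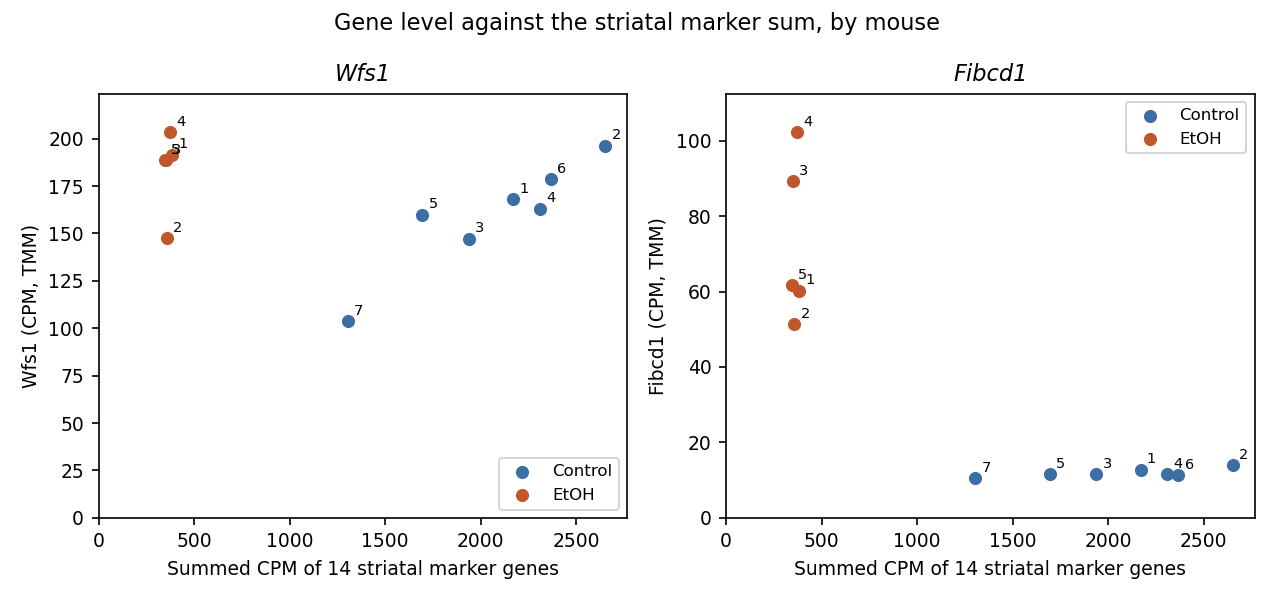
CPM of Wfs1 (left) and Fibcd1 (right) against the summed CPM of 14 striatal marker genes, both axes linear and starting at 0, with 1 numbered point per mouse (7 control, 5 EtOH). Control mouse 7, with the lowest striatal sum among controls (1304 CPM), also has the lowest Wfs1 (104 CPM), whereas the EtOH mice lie between 346 and 383 CPM on the horizontal axis with Wfs1 at 148 to 203 CPM and Fibcd1 at 51.4 to 102 CPM.

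**Figure D4:**
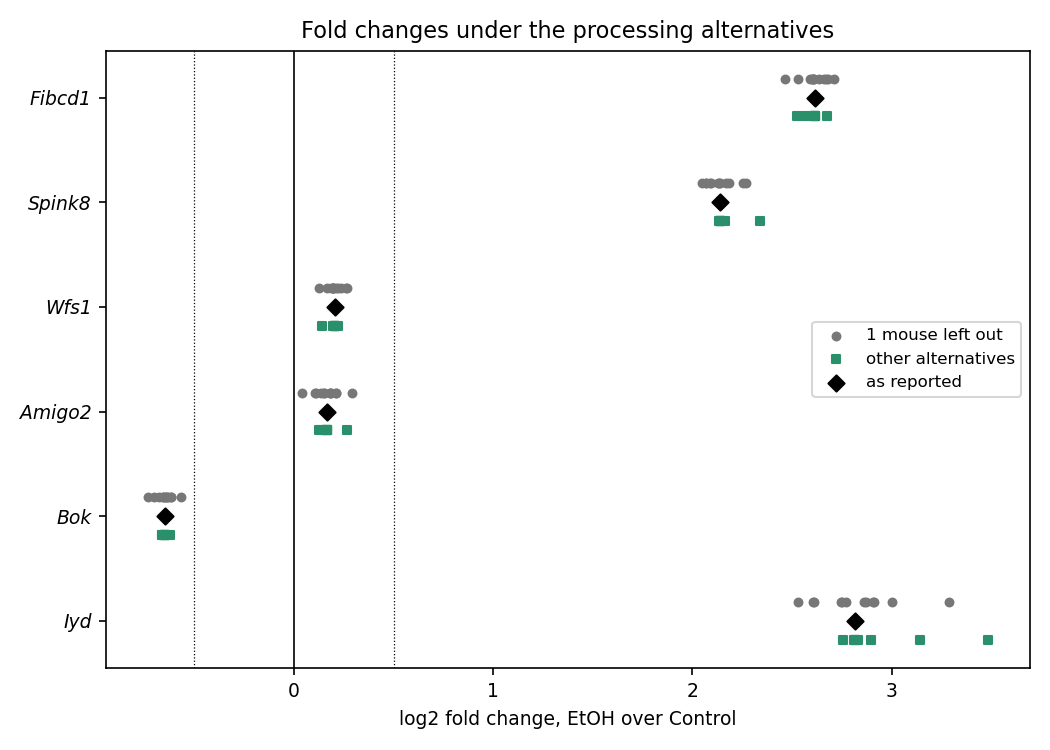
Log2 fold change of EtOH over control mice (horizontal axis) for each of the 6 CA field genes as reported (diamond), with 1 mouse left out (grey points) and under the other processing alternatives (green squares); dotted lines mark 0.5 in either direction. No gene changes sign, Wfs1 and Amigo2 stay between the dotted lines, and Iyd, with the fewest counts, spreads most, up to 3.48.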

How the data were processed

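The authors had RNA of frozen cortex extracted and sequenced by BGI, checked reads with FastQC 0.11.9, used STAR for alignment to GRCm39 (Gencode Release 28) and featureCounts for counting. The deposited values are expected counts of 12 mice, listed by gene symbol and not normalized; 61 symbols hold values that are not whole, and counts were rounded here. Columns were matched to mice by name, with 0 left unmatched. Strand and multi-mapping settings are not given in the sources used here, and nor is whether mice shared a cage or litter.

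Genes were filtered with filterByExpr, scaled with TMM and tested with edgeR 4.0.16 in R 4.3.3 (quasi-likelihood test, Benjamini-Hochberg over 16059 genes). Standard errors are log2 fold changes divided by the square root of F. Alternatives used DESeq2 1.42.0, limma 3.58.1 (voom), other factors and filters, a replicate block and each mouse left out. Fits were tested on simulated data. Positions and exon lengths come from Gencode release 39 of GRCm39.

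The 6 genes and all gene lists were chosen with earlier results of these data known. Named were the 6 genes, called list members (at most 4 per direction with the smallest p, with other list members given as examples), and the 3 genes of at least 1 CPM most similar to each. At 31768076 to 42183029 counts per mouse, precision is limited most for Iyd and Spink8. A further gene of the CA1 list is not reported here.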

Additional observations from a re-analysis of the deposited data

Results flagged for a closer look

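By Dixon's test, 1 mouse lay apart from its group in 4 of 42 checks of genes, marker lists, gene pairs and totals, where chance gives about 2.1. EtOH 2 had the lowest log2 CPM of Wfs1 among EtOH mice (7.21, next 7.56); its Adcy5 and Drd1 were also the lowest of all 12 mice (144 and 8.65 CPM). Without EtOH 2 the log2 fold change of Wfs1 was 0.27 (edgeR adjusted p = 0.104). Control mouse 1 had the lowest log2 summed level of the thalamic list among controls (5.78, next 5.90). Control mouse 5 had 40690223 counts (next 32356913) and EtOH 1 had 42183029 (next 33313165). With these 2 deepest libraries left out, an alternative chosen after seeing the data, Fibcd1, Spink8 and Bok were still called, and the log2 fold change of Iyd was 3.48.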

How the results depend on the processing

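Among the CA field genes, none changed direction under DESeq2, limma voom, RLE or upper quartile factors, other expression filters, the replicate block, or with any 1 mouse left out. Fibcd1, Spink8 and Bok were called in each of these fits, and Wfs1 and Amigo2 in none; Iyd, whose calls are not counted because the expression filter admitted it through the EtOH mice alone, did not pass the filter of at least 10 counts in every mouse. Over the 12 fits that left out 1 mouse, log2 fold changes ranged from 2.46 to 2.71 for Fibcd1, 2.05 to 2.27 for Spink8, 2.53 to 3.29 for Iyd, -0.73 to -0.57 for Bok, 0.12 to 0.27 for Wfs1 and 0.04 to 0.29 for Amigo2. With a minimum log2 fold change of 1, Bok (-0.65) was no longer called, which left 0 of the 6 genes lower, and 242 genes were higher and 282 lower over all; with no minimum, 1947 were higher and 1863 lower, against 674 and 657. These changes follow from the threshold itself. The shift of Fibcd1 minus Spink8 passed with a prior count of 5 (0.62, exact permutation adjusted p = 0.0404) and ranged from 0.37 to 0.67 with 1 mouse left out; the cause was not tested. Replicate numbers are shared between groups but did not pair the mice (r of deviations between -0.11 and 0.02 over 5 numbers, 0 of 5 matching best). With them as a block, 690 and 634 genes were called, and Fibcd1 had 2.52, Spink8 2.34, Iyd 2.75 and Bok -0.66. Depth limits Iyd most, whose control values rest on 0 to 9 counts.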

Other observations

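Within the 5 EtOH mice, Fibcd1 and the dentate gyrus list ran in opposite order. From the lowest to the highest Fibcd1, EtOH 2, 1, 5, 3 and 4 had 51.4, 60.2, 61.7, 89.2 and 102 CPM. In the same order the summed level of the 10 dentate gyrus genes was 412, 335, 333, 275 and 246 CPM, and C1ql2, a gene of granule cells that encodes a synaptic C1q-like protein, had 27.9, 25, 18.1, 14.8 and 9.70 CPM. This order was noticed after the values had been seen and was not tested. The 10 dentate gyrus genes used here include Dsp, which passed the expression filter through the EtOH mice alone. Over all 12 mice with the group means removed, r between Fibcd1 and the 10 dentate gyrus genes had a median of -0.64, and of -0.19 without EtOH 4 and EtOH 2. Within the 7 control mice the median was -0.08 (-0.75 to 0.78). With the 8 oligodendrocyte genes the medians were -0.74 over 12 mice, -0.37 without EtOH 4 and EtOH 2 and -0.21 within the control mice, and the summed oligodendrocyte level of EtOH 2, 1, 5, 3 and 4 was 5306, 3340, 3695, 3282 and 2968 CPM.

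Gpr161, the CA1 list gene nearest to Fibcd1 in its log2 fold change, varied less among the EtOH mice, with 46.0, 38.8, 45.4, 43.9 and 42.6 CPM in mice 1 to 5.

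The choroid plexus gene Ttr differed widely within the EtOH group, at 97.7, 8.99, 911, 241 and 2.16 CPM in mice 1 to 5. The control mice had 3.13 to 13.1 CPM.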
